A study of Homo sapiens with 12 samples.

Results

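BTG1, BTG2, GADD45A, GADD45B, GADD45G, SESN1, SESN2, SESN3 and DDIT4 are stress-response genes that slow growth or protein synthesis. They were followed in RBE cells, an established human cholangiocarcinoma line derived from bile duct cancer. The members were found by their symbols in the deposited count table: all 9 were among its 55773 entries, and all 9 passed the filter on low counts that left 15691 genes. Poly(A) RNA was sequenced in 12 libraries, 3 in each of 4 groups. Cells of the first group received 5 µM AG-120 for 22 days and then 5 µM Nutlin for 72 hours (AG-120 plus Nutlin). Cells of the second had DMSO, the vehicle, in place of AG-120 before the same Nutlin treatment (DMSO plus Nutlin). The third had AG-120 and then DMSO in place of Nutlin (AG-120 alone), and the fourth had DMSO for both steps (DMSO alone). AG-120 inhibits mutant IDH1, the enzyme that makes 2-hydroxyglutarate (2-HG), and Nutlin inhibits MDM2, the ubiquitin ligase that keeps p53 low. The study asked whether 2-HG alters the transcription that p53 directs, and the counts hold no measure of 2-HG itself. All groups are 1 cell line, so nothing here is a comparison between tumours, and the labels do not say whether the replicates are separate cultures. P-values therefore measure the spread between libraries, which may be technical.

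These genes belong to families that act after stress. BTG1 and BTG2 are antiproliferative adaptor proteins that bind the CAF1 subunits of the CCR4-NOT complex, which shortens poly(A) tails. The GADD45 proteins are small acidic proteins that bind PCNA, p21 and the kinase MAP3K4, and GADD45A is best known for its part in the G2/M checkpoint. Sestrins hold back mTORC1, the kinase complex that drives protein synthesis when amino acids are plentiful; SESN2 binds leucine and acts on the GATOR2 complex. DDIT4, also called REDD1, restrains mTORC1 through the TSC complex. BTG2, GADD45A, SESN1 and SESN2 are textbook p53 targets, SESN3 is known as a FOXO target, and DDIT4 responds to hypoxia, glucocorticoids and ATF4. GADD45B is known as an NF-kB and TGF-beta target.

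The libraries held 16840161 to 27499433 counts each (median 19221201). Levels are CPM, the counts of a gene scaled to library size by TMM. Nutlin acted in every treated library, as read from the p53 targets MDM2 and CDKN1A: MDM2 rose 20.5-fold in AG-120 cells (edgeR quasi-likelihood test, adjusted p = 7.97e-10) and 19.5-fold in DMSO cells (adjusted p = 1.03e-09). Of 6 biliary markers fixed for the check, all 6 were present. Their summed levels were 2677 to 2760 CPM in AG-120 plus Nutlin, against 3568 to 4383 CPM in AG-120 alone, and 3569 to 4502 CPM in DMSO plus Nutlin, against 3122 to 3268 CPM in DMSO alone. The leukocyte marker CD3E, the fibroblast markers DCN and LUM and the hepatocyte marker APOB were at 0 in every library. The 6 leukocyte markers summed to 0.394 to 0.844 CPM in AG-120 plus Nutlin, against 2.06 to 4.33 CPM in AG-120 alone, and to 0 to 0.641 CPM in DMSO plus Nutlin, against 3.11 to 5.43 CPM in DMSO alone. The 7 fibroblast markers, led by ACTA2, summed to 42.0 to 55.5 CPM over all groups, and the 4 endothelial markers in the table to at most 1.06 CPM. The 6 hepatocyte markers, led by SERPINA1, summed to 315 to 325 CPM in AG-120 plus Nutlin, against 152 to 167 CPM in AG-120 alone, and 258 to 329 CPM in DMSO plus Nutlin, against 114 to 127 CPM in DMSO alone. Mitochondrially encoded genes took 3.14 to 3.40% of counts in AG-120 plus Nutlin, against 1.07 to 1.21% in AG-120 alone, and 1.12 to 2.50% in DMSO plus Nutlin, against 0.795 to 1.08% in DMSO alone. RMRP, RPPH1 and RN7SK, RNAs without a poly(A) tail, stood at 77.5, 174 and 163.5 CPM in DMSO plus Nutlin replicate 2. They stood at 23.6, 19.9 and 68.0 CPM in AG-120 alone replicate 1, and at 8.39, 24.6 and 19.4 CPM in AG-120 alone replicate 2. In AG-120 plus Nutlin replicate 3 they stood at 15.2, 43.0 and 27.7 CPM. Each was at most 3.99 CPM in every remaining library. The part of these levels in the results below was not tested, and in bulk RNA fewer cells of a type and less RNA per cell cannot be told apart. DMSO plus Nutlin replicates 2 and 3 and AG-120 alone replicate 1 stood apart from the other libraries. In these, 11.8%, 15.01% and 4.64% of genes differed more than 2-fold from the mean of the group's remaining libraries, against 1.91 to 2.14% in the DMSO alone libraries. DMSO plus Nutlin replicate 1, set against the other two, reached 7.58%. Values that moved most without them are given both ways.

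Under Nutlin, 8 of the 9 genes rose and GADD45B fell, in AG-120 cells and in DMSO cells alike. Over all genes tested, 27.0% were called higher and 28.8% lower in AG-120 cells, and 26.8% were called higher and 27.1% lower in DMSO cells (adjusted p of at most 0.05). The median change of the 9 genes was 2.44 on the log2 scale in AG-120 cells and 2.46 in DMSO cells, beside medians of 0.00 and -0.02 over all genes in the same order. For every one of the 9 genes the Nutlin libraries and their no-Nutlin libraries did not overlap. Such gaps were common: in AG-120 cells 35.1% of all genes lay apart upward and 35.1% downward, and in DMSO cells 28.3% upward and 30.9% downward. All 9 calls remained in both comparisons when the 3 libraries above were omitted, a fit that called 32.9% of genes higher and 34.7% lower in AG-120 cells, and 28.6% higher and 29.3% lower in DMSO cells.

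**Figure D1:**
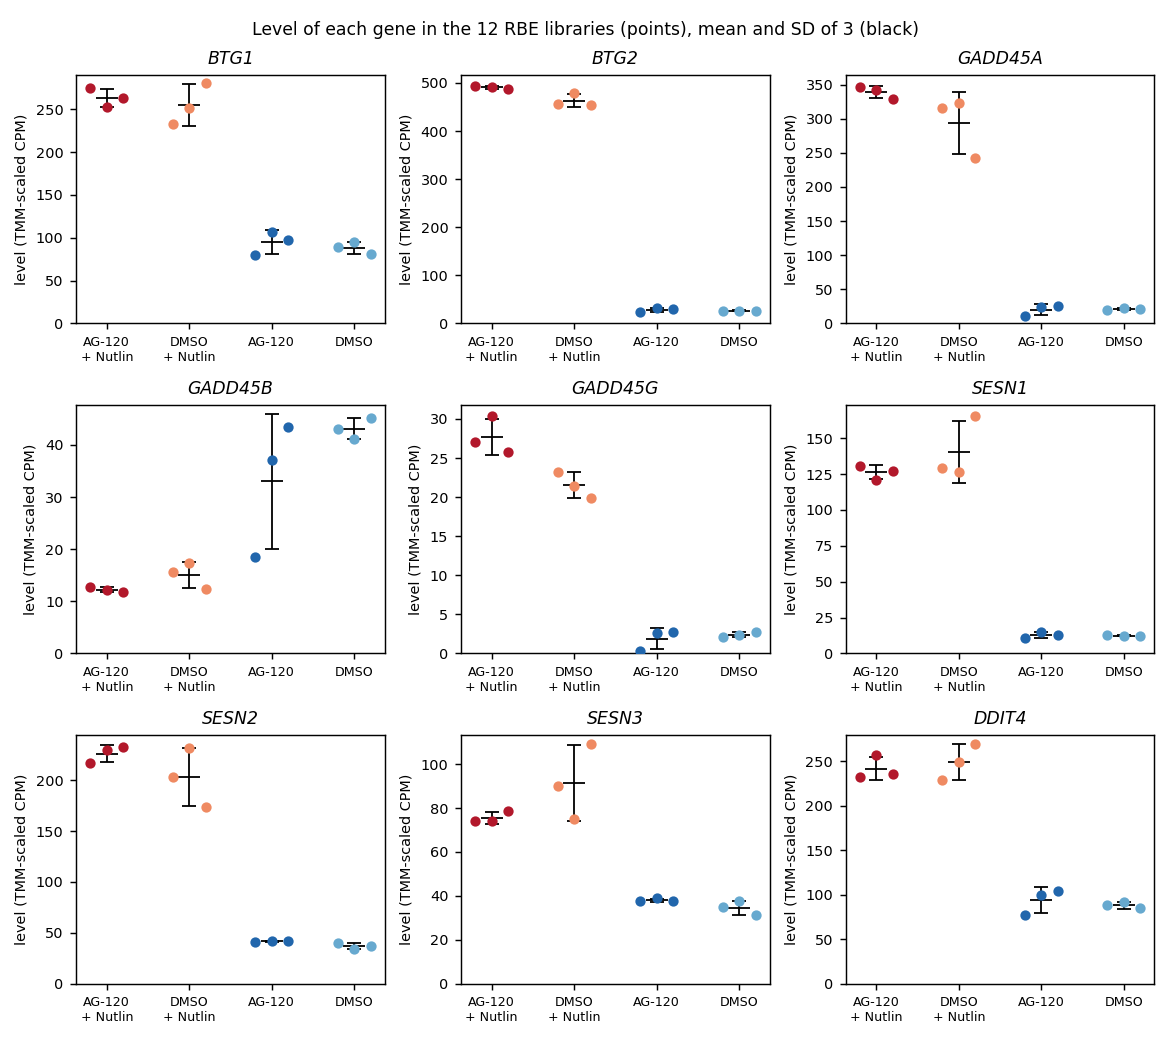
Level of each of the 9 genes in every library (vertical axis, TMM-scaled CPM, linear from 0) by group, with points for single libraries and black marks for the mean and SD of 3. Nutlin libraries lie above the no-Nutlin libraries for 8 genes and below them for GADD45B.

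BTG2 had the widest separation of the 9 genes. Its level was 493, 492 and 488 CPM in AG-120 plus Nutlin, against 23.9, 31.0 and 30.1 CPM in AG-120 alone. It was 456, 479 and 454 CPM in DMSO plus Nutlin, against 26.3, 24.9 and 26.2 CPM in DMSO alone. The lowest Nutlin library thus held many times the level of the highest library without Nutlin, and replicates of a Nutlin group were close together. The log2 fold change was 4.12 ± 0.11 in AG-120 cells (SE, n = 3 per group; edgeR adjusted p = 2.04e-11), or 17.4-fold. In DMSO cells it was 4.16 ± 0.11 (edgeR adjusted p = 2.57e-11), or 17.9-fold, and BTG2 ranked 224 from the top of 15691 genes by fold change in that comparison. BTG2 lies on hg19 chromosome 1 from 203274619 to 203278730.

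BTG1, the close relative of BTG2, started higher and rose less. It stood at 275, 253 and 263 CPM in AG-120 plus Nutlin, against 79.7, 107 and 97.9 CPM in AG-120 alone. In DMSO plus Nutlin it stood at 233, 252 and 281 CPM, against 89.1, 95.1 and 81.0 CPM in DMSO alone. All Nutlin libraries were above all others. The changes were 2.78-fold in AG-120 cells (log2 1.48 ± 0.12 SE, edgeR adjusted p = 2.80e-07) and 2.89-fold in DMSO cells (log2 1.53 ± 0.12 SE, edgeR adjusted p = 2.35e-07). The order of the pair by counts turned over. BTG2 supplied 65.1 ± 0.903% of the counts of both genes in AG-120 plus Nutlin, against 23.0 ± 0.539% in AG-120 alone. Its share was 64.5 ± 2.39% in DMSO plus Nutlin, against 22.7 ± 1.87% in DMSO alone (SD, n = 3 each). Shares of counts depend on gene length as well as on transcript number, so a share does not give the molar ratio.

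BTG1 lies on hg19 chromosome 12 from 92536286 to 92539673. The stretch from 220 bases before to 30 after its RefSeq start (GRCh38.p14, chr12:92145817-92146066, minus strand) is shown because it holds the FOXO element GTAAACA on the opposite strand, at bases -209 to -203. Capitals mark the element, read here as its reverse complement. Of 35116 RefSeq promoter windows of 300 bases, 3.42% held this element on either strand. A match is a run of letters and does not show binding.
BTG1: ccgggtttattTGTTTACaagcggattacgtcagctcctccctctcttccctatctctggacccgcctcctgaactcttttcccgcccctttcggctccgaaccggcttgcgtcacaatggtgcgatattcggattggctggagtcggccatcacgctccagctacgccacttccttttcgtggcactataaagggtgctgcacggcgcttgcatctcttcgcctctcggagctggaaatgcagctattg

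The GADD45 family split. GADD45A, the p53-linked member, and GADD45G rose, while GADD45B fell. GADD45A had 346, 343 and 329.5 CPM in AG-120 plus Nutlin, against 10.8, 23.6 and 25.5 CPM in AG-120 alone. In DMSO plus Nutlin it had 316.5, 323 and 242 CPM, against 19.9, 22.0 and 21.2 CPM in DMSO alone. No Nutlin library came near a library without Nutlin. The log2 fold change was 4.09 ± 0.26 in AG-120 cells (SE, edgeR adjusted p = 2.79e-08), or 17.1-fold. It was 3.80 ± 0.26 in DMSO cells (SE, edgeR adjusted p = 5.74e-08), or 13.96-fold. Without AG-120 alone replicate 1 the change in AG-120 cells was 3.79. GADD45A lies on hg19 chromosome 1 from 68150744 to 68154021.

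GADD45G was the scarcest of the 9 genes without Nutlin. It had 27.0, 30.3 and 25.8 CPM in AG-120 plus Nutlin, against 0.300, 2.60 and 2.80 CPM in AG-120 alone, where the libraries held 7, 53 and 53 counts. It had 23.2, 21.5 and 19.9 CPM in DMSO plus Nutlin, against 2.16, 2.32 and 2.72 CPM in DMSO alone, from 43, 41 and 79 counts. The groups did not overlap, and the AG-120 fold rests in part on the library with 7 counts. The change was 14.9-fold in AG-120 cells (log2 3.90 ± 0.42 SE, edgeR adjusted p = 4.30e-06) and 8.89-fold in DMSO cells (log2 3.15 ± 0.40 SE, edgeR adjusted p = 2.30e-05). Without that library the log2 change in AG-120 cells was 3.36.

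GADD45B, which in other tissues follows NF-kB and TGF-beta signals, moved the other way. It stood at 12.7, 12.1 and 11.8 CPM in AG-120 plus Nutlin, against 18.5, 37.1 and 43.5 CPM in AG-120 alone. It stood at 15.7, 17.3 and 12.3 CPM in DMSO plus Nutlin, against 43.1, 41.2 and 45.1 CPM in DMSO alone. The nearest libraries of the AG-120 pair were 12.7 CPM with Nutlin and 18.5 CPM without it, so the gap there was narrow and hung on AG-120 alone replicate 1. GADD45B fell by 1.43 ± 0.24 on the log2 scale in AG-120 cells (SE, edgeR adjusted p = 2.51e-04) and by 1.52 ± 0.24 in DMSO cells (SE, edgeR adjusted p = 1.52e-04). Without AG-120 alone replicate 1 it fell by 1.72 in AG-120 cells. The family's make-up was therefore unlike in cells with and without Nutlin. GADD45A gave 89.5 ± 0.435% of the family's counts in AG-120 plus Nutlin, against 36.4 ± 0.886% in AG-120 alone. GADD45A gave 88.9 ± 0.544% in DMSO plus Nutlin, against 31.6 ± 1.71% in DMSO alone. GADD45B gave 3.22 ± 0.0736% in AG-120 plus Nutlin, against 60.6 ± 1.98% in AG-120 alone, and 4.56 ± 0.191% in DMSO plus Nutlin, against 64.8 ± 1.71% in DMSO alone (SD, n = 3 each).

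The start regions of GADD45B and GADD45G are shown because both hold the hypoxia element ACGTG within the 6-base run CACGTG. That run is its own reverse complement, so the element matches on both strands. These runs, in capitals, lie at -168 to -163 in GADD45B (GRCh38.p14, chr19:2475907-2476156, plus strand) and at -143 to -138 in GADD45G (GRCh38.p14, chr9:89604792-89605041, plus strand). ACGTG was present on either strand in 21.4% of the 35116 windows, and the share with the 6-base run was not counted. The second run of capitals in GADD45G, at -102 to -95, is the C/EBP-ATF element TGATGNAA on the opposite strand, present in 3.62% of windows. GADD45B lies on hg19 chromosome 19 from 2476120 to 2478257, and GADD45G on chromosome 9 from 92219928 to 92221470.
GADD45B: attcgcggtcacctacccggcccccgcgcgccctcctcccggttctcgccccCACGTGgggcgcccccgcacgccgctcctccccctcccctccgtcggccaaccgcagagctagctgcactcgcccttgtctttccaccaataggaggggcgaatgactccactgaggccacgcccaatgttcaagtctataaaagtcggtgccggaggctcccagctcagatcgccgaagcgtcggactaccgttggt
GADD45G: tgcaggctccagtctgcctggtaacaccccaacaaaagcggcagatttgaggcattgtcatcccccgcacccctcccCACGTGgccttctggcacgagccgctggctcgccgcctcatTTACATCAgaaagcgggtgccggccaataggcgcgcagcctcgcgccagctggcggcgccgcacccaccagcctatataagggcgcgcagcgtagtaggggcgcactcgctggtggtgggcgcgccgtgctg

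All 3 sestrins rose, each to a different extent. SESN1 had 130.5, 121 and 127 CPM in AG-120 plus Nutlin, against 10.7, 15.2 and 12.9 CPM in AG-120 alone. It had 129.5, 127 and 165.5 CPM in DMSO plus Nutlin, against 13.03, 12.3 and 12.2 CPM in DMSO alone. Its groups were far apart. SESN1 rose 9.77-fold in AG-120 cells (log2 3.29 ± 0.14 SE, edgeR adjusted p = 9.15e-10) and 11.2-fold in DMSO cells (log2 3.49 ± 0.14 SE, edgeR adjusted p = 6.41e-10). SESN1 lies on hg19 chromosome 6 from 109307640 to 109416022 and has 3 RefSeq start windows. The third is shown (GRCh38.p14, chr6:109008959-109009208, minus strand) because among the 8 members with a window it alone held a p53 element. Capitals mark a 20-base p53 site with 3 mismatches, its core C and G bases kept, at -49 to -30, whose first 10 bases match the 10-base p53 element in full. That element was present in 6.63% of the 35116 windows, and a 20-base site with at most 3 mismatches in 1.12%.
SESN1: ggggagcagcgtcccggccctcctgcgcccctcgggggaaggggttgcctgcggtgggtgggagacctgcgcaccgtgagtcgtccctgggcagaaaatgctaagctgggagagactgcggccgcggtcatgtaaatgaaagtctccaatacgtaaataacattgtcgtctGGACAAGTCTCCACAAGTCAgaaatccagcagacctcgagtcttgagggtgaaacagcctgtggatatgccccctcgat

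SESN2, the leucine sensor, had 217, 229 and 233 CPM in AG-120 plus Nutlin, against 41.0, 42.1 and 42.2 CPM in AG-120 alone. It had 203.5, 232 and 174 CPM in DMSO plus Nutlin, against 39.8, 34.5 and 36.6 CPM in DMSO alone. The change was 5.42-fold in AG-120 cells (log2 2.44 ± 0.11 SE, edgeR adjusted p = 1.30e-09) and 5.49-fold in DMSO cells (log2 2.46 ± 0.11 SE, edgeR adjusted p = 1.40e-09). SESN2 lies on hg19 chromosome 1 from 28586038 to 28609002.

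SESN3 changed least among the genes that rose. It stood at 74.0, 74.0 and 78.7 CPM in AG-120 plus Nutlin, against 37.5, 38.9 and 37.4 CPM in AG-120 alone. It stood at 90.2, 75.0 and 109 CPM in DMSO plus Nutlin, against 34.8, 37.6 and 31.3 CPM in DMSO alone. The spread was widest in DMSO plus Nutlin, with an SD of 18.9% of the mean. It was 9.1% in DMSO alone, 3.6% in AG-120 plus Nutlin and 2.2% in AG-120 alone. SESN3 rose 1.99-fold in AG-120 cells (log2 0.99 ± 0.13 SE, edgeR adjusted p = 1.97e-05) and 2.65-fold in DMSO cells (log2 1.41 ± 0.13 SE, edgeR adjusted p = 9.41e-07). It lies on hg19 chromosome 11 from 94898704 to 94965705. Within the sestrin family, the share of SESN3 was 17.7 ± 0.257% in AG-120 plus Nutlin, against 41.0 ± 0.917% in AG-120 alone, and 21.0 ± 3.55% in DMSO plus Nutlin, against 41.1 ± 2.99% in DMSO alone. The share of SESN1 was 29.5 ± 1.30% in AG-120 plus Nutlin, against 13.9 ± 1.92% in AG-120 alone, and 32.2 ± 4.07% in DMSO plus Nutlin, against 14.9 ± 0.292% in DMSO alone (SD, n = 3 each).

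**Figure D2:**
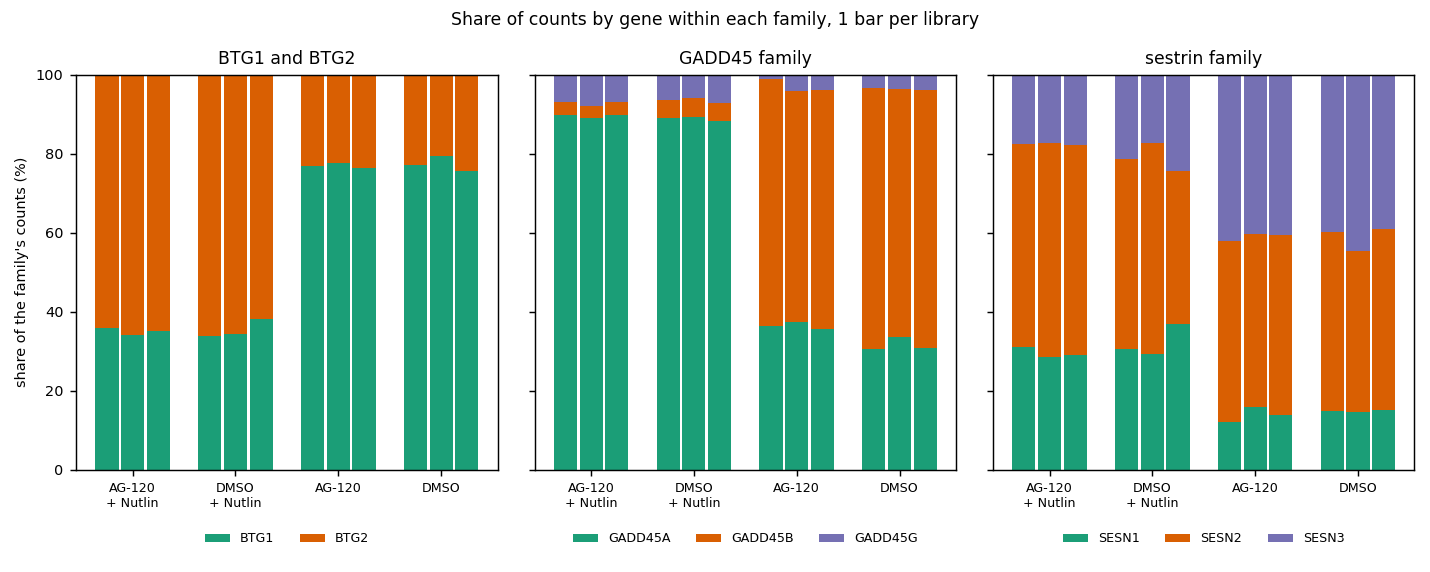
Share of each family's counts that each gene supplied (vertical axis, %, linear from 0), 1 bar per library, for BTG1 with BTG2, the GADD45 genes and the sestrins. BTG2, GADD45A and SESN1 take larger shares in Nutlin libraries, and GADD45B and SESN3 smaller ones.

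DDIT4, the mTORC1 inhibitor, had 233, 257 and 236 CPM in AG-120 plus Nutlin, against 77.0, 99.9 and 105 CPM in AG-120 alone. It had 229, 249 and 270.2 CPM in DMSO plus Nutlin, against 88.2, 92.0 and 84.6 CPM in DMSO alone. The Nutlin libraries lay above all others. DDIT4 rose 2.58-fold in AG-120 cells (log2 1.37 ± 0.12 SE, edgeR adjusted p = 5.12e-07) and 2.83-fold in DMSO cells (log2 1.50 ± 0.12 SE, edgeR adjusted p = 2.50e-07). Its start region (GRCh38.p14, chr10:72273704-72273953, plus strand) is shown for the hypoxia element ACGTG at -125 to -121, in capitals, since hypoxia is a known inducer of the gene. On hg19, DDIT4 lies on chromosome 10 from 74033678 to 74035794.
DDIT4: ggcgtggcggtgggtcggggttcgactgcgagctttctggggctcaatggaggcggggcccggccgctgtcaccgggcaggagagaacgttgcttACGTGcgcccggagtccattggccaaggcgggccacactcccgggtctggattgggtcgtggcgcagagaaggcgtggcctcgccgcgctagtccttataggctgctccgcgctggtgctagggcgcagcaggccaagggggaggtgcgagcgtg

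The windows of BTG2, SESN2 and SESN3 held none of the motifs searched, and GADD45A had no entry in the table. Those letters are missing from these windows only, which says nothing of sites elsewhere in the genes. Some members overlap other entries of the count table: BTG1, SESN1, SESN3 and DDIT4 have overlapping entries with at most 17, 5, 16 and 0 counts in any library, in that order. The strand setting of the counting is not given in the sources used here.

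**Figure D3:**
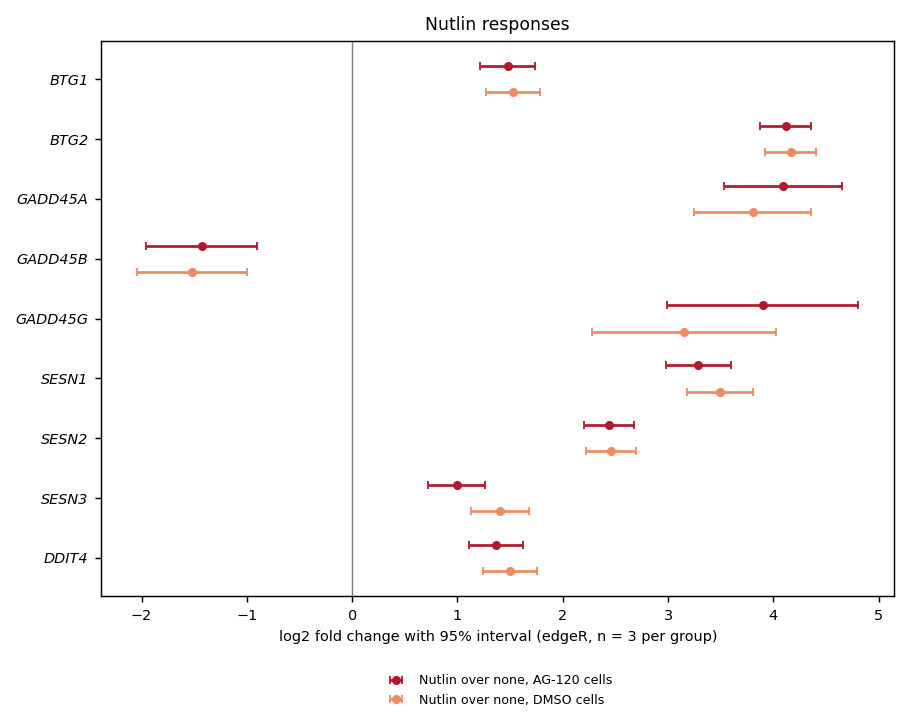
Nutlin response of each gene (horizontal axis, log2 fold change with its 95% interval from edgeR, n = 3 per group) in AG-120 cells and in DMSO cells. The intervals of the 8 genes that rose lie right of 0 and that of GADD45B left of 0, and for each gene both intervals overlap.

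Per kilobase of exon, the order of the genes differed with Nutlin. BTG1 was left out, since the exon length at hand exceeds its span in the count table. In AG-120 plus Nutlin the order of levels was GADD45A (227 CPM per kb), BTG2 (181 CPM per kb), DDIT4 (138 CPM per kb), SESN2 (65.5 CPM per kb), SESN1 (32.0 CPM per kb), GADD45G (21.0 CPM per kb), GADD45B (7.85 CPM per kb) and SESN3 (7.39 CPM per kb). Of these neighbours, GADD45B and SESN3 overlapped in their libraries. In DMSO plus Nutlin the order was the same, with GADD45A at 196 ± 30.1 CPM per kb and BTG2 at 171 ± 5.06 CPM per kb (SD, n = 3). There the libraries of GADD45A and BTG2 overlapped, as did those of GADD45B and SESN3. In AG-120 alone DDIT4 led at 53.7 ± 8.47 CPM per kb, followed by GADD45B at 21.2 ± 8.33 and GADD45A at 13.3 ± 5.36 CPM per kb (SD, n = 3). In DMSO alone DDIT4 also led, at 50.5 ± 2.13 CPM per kb, ahead of GADD45B at 27.7 ± 1.26 and GADD45A at 14.1 ± 0.708 CPM per kb (SD, n = 3). GADD45G was last without Nutlin, at 1.44 ± 1.05 CPM per kb in AG-120 alone and 1.81 ± 0.218 CPM per kb in DMSO alone. SESN3 and SESN1 overlapped in both groups without Nutlin. In AG-120 alone GADD45A also overlapped GADD45B, SESN2 and BTG2, and GADD45B overlapped SESN2.

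AG-120 without Nutlin changed none of the 9 genes by the edgeR test, where 0.0510% of all genes, 8 of 15691, were called. No member reached an unadjusted p of 0.05, as 1254 of all genes did, and DESeq2 also called 0 members. The log2 differences of AG-120 alone over DMSO alone ran from -0.39 for GADD45B (95% interval -0.89 to 0.12) to 0.18 for SESN2 (95% interval -0.05 to 0.41). The GADD45B value was -0.10 without AG-120 alone replicate 1, and -0.10 without the 3 libraries. SESN2 was the 1 member whose libraries did not overlap, at 41.0 to 42.2 CPM in AG-120 alone and 34.5 to 39.8 CPM in DMSO alone. Such a gap upward was present in 11.4% of all genes, and the edgeR adjusted p for SESN2 was 0.718. For BTG2 the interval ran from -0.09 to 0.35, and for GADD45G, with its few counts, from -1.36 to 0.60. These intervals leave room for modest changes in either direction.

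That result depended on which libraries were used. Without DMSO plus Nutlin replicates 2 and 3 and AG-120 alone replicate 1, 3 members were called higher in AG-120 alone than in DMSO alone, where 3.67% of 16553 genes were called higher and 1.81% lower. These were BTG1 (log2 0.22 ± 0.06 SE, edgeR adjusted p = 0.0458), BTG2 (log2 0.24 ± 0.06 SE, edgeR adjusted p = 0.0175) and DDIT4 (log2 0.22 ± 0.06 SE, edgeR adjusted p = 0.0276). GADD45A was at 0.22 (edgeR adjusted p = 0.0570) and SESN2 at 0.19 (edgeR adjusted p = 0.0891) in that fit. Leaving out any 1 library of either group gave 0 called members. The fit without the 3 libraries leaves 2 in AG-120 alone and 1 in DMSO plus Nutlin, which the model takes to vary as the remaining groups do.

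AG-120 alone replicate 1 was the library in which the GADD45 genes were out of step. Relative to the mean of the other libraries of its group, GADD45G was lower by 2.81 on the log2 scale, GADD45A by 1.18 and GADD45B by 1.12. The sestrins SESN2 and SESN3 differed by only 0.04 and 0.03 there, while DDIT4, SESN1, BTG1 and BTG2 were lower by 0.41, 0.39, 0.36 and 0.35. In the same library the median deviation was -0.22 over 2268 genes with under 2 kb of exon and 0.17 over 3939 genes with over 5 kb. The 3 GADD45 genes and DDIT4 have under 2 kb of exon. Among those 2268 genes, 2.07% were as low as GADD45A or lower, 2.60% as low as GADD45B and 0.0441% as low as GADD45G. Gene length moved with the deviation in this library (Spearman 0.386 over 13510 genes, a description), and its part in the low GADD45 values was not tested. The shares of GADD45A and GADD45B within their family, at 36.4% and 62.6%, were close to those of the other AG-120 alone libraries, at 35.5 to 37.3% and 58.6 to 60.6%. The share of GADD45G was 1.02% there, against 3.90 to 4.11% in the other AG-120 alone libraries. In DMSO plus Nutlin replicate 3, GADD45A, GADD45B and SESN2 were lower by 0.40, 0.42 and 0.32 than in the other libraries of the group, and SESN1 and SESN3 were higher by 0.37 and 0.41. Length ran the other way in that library (Spearman -0.325), with a median deviation of 0.27 under 2 kb and -0.24 over 5 kb. Of the short members, GADD45G deviated there by -0.17 and DDIT4 by 0.18, and the part of length was not tested.

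**Figure D4:**
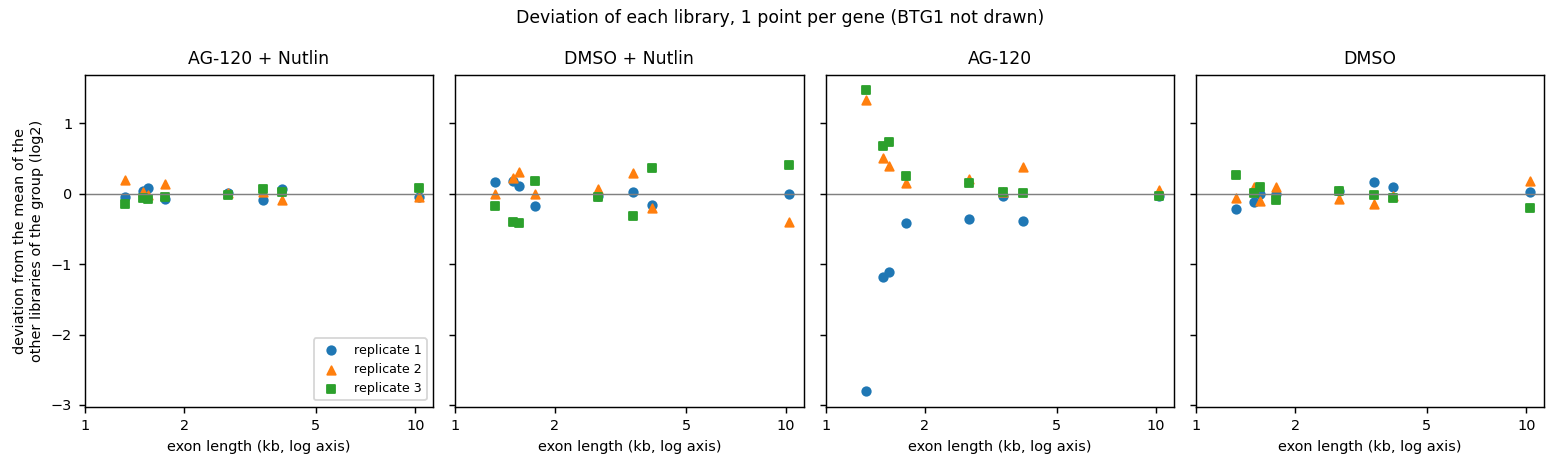
Deviation of each library from the mean of its group's other libraries (vertical axis, log2) against the exon length of the gene (horizontal axis, kb, log axis), 1 point per gene and library, without BTG1. In AG-120 alone replicate 1 the shortest genes, the GADD45 family, lie furthest below 0, with GADD45G at -2.81.

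With Nutlin present in both groups, AG-120 again gave no called member, where 2.36% of all genes were called. Without the 3 libraries that stood apart 8.30% of genes were called, and again 0 members. The differences of AG-120 plus Nutlin over DMSO plus Nutlin ran from -0.30 for GADD45B (95% interval -0.83 to 0.23) to 0.37 for GADD45G (95% interval -0.38 to 1.11). SESN3 was the 1 member with an unadjusted p under 0.05, as 3067 of the 15691 genes had, at 75.6 ± 2.69 CPM in AG-120 plus Nutlin and 91.5 ± 17.3 CPM in DMSO plus Nutlin (SD, n = 3). Its log2 difference was -0.28 ± 0.12 (SE, 95% interval -0.55 to -0.01, edgeR adjusted p = 0.242), and the libraries overlapped. The libraries of BTG2, GADD45A and GADD45G did not overlap and were higher with AG-120, a pattern present in 14.2% of all genes. BTG2 averaged 491 ± 2.79 CPM in AG-120 plus Nutlin and 463 ± 13.7 CPM in DMSO plus Nutlin. GADD45A averaged 339 ± 8.71 CPM in AG-120 plus Nutlin and 294 ± 45.0 CPM in DMSO plus Nutlin. GADD45G averaged 27.7 ± 2.34 CPM in AG-120 plus Nutlin and 21.5 ± 1.68 CPM in DMSO plus Nutlin (SD, n = 3 each). For BTG2 the 95% interval of the log2 difference was -0.13 to 0.30, which limits any difference to about this range under the edgeR model.

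The Nutlin responses in AG-120 cells and in DMSO cells were then compared as an interaction, in which 0 members and 0.363% of all genes were called. By DESeq2, too, 0 members were called. SESN3 was again the 1 member with an unadjusted p under 0.05, which 1730 of the 15691 genes reached. Its response in AG-120 cells was lower by 0.41 ± 0.18 on the log2 scale than in DMSO cells (SE, 95% interval -0.79 to -0.03, edgeR adjusted p = 0.419). Without the 3 libraries that stood apart the SESN3 difference was -0.39 (edgeR adjusted p = 0.0510), and 0 members were called among 3.85% of all genes. The widest interval was that of GADD45G, at 0.75 with limits of -0.49 and 1.98. Without AG-120 alone replicate 1 the GADD45G difference was 0.21, without the 3 libraries it was 0.12, and with each library left out in turn it ran from 0.21 to 1.14. The narrowest were those of BTG2, at -0.05 with limits of -0.35 and 0.26, and SESN2, at -0.02 with limits of -0.34 and 0.30.

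**Figure D5:**
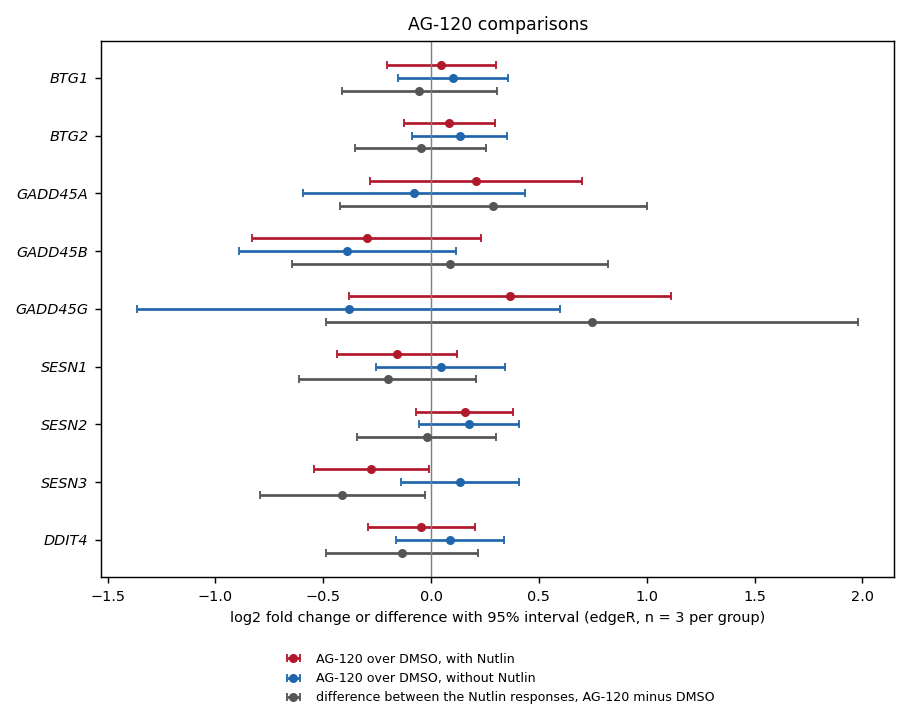
Differences between AG-120 and DMSO for each gene with Nutlin and without it, and the difference between the Nutlin responses (horizontal axis, log2 with 95% intervals from edgeR, n = 3 per group). All intervals include 0 but those of SESN3 with Nutlin and in the difference between responses, and no member passes the adjusted threshold.

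The partners of each family were described from lists of pathway genes. Beside the list counts below, 26.8 to 28.8% of all genes were called in each direction in the Nutlin comparisons. In the BTG, TOB and CCR4-NOT list, 5 of 16 genes tested rose and 4 fell under Nutlin in AG-120 cells, and 4 rose and 4 fell in DMSO cells. BTG3, another antiproliferative family member, rose 3.50-fold in AG-120 cells (edgeR adjusted p = 1.10e-06) and 3.31-fold in DMSO cells (edgeR adjusted p = 1.86e-06). CNOT6, a deadenylase subunit, rose 1.90-fold in AG-120 cells and 1.54-fold in DMSO cells. TOB1, which also bridges to CCR4-NOT, rose 1.46-fold in AG-120 cells and 1.68-fold in DMSO cells. The list's median change was -0.03 in AG-120 cells and 0.03 in DMSO cells on the log2 scale, near the medians of all genes.

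Among 15 partners and stress kinases of GADD45, 6 rose and 5 fell in AG-120 cells, and 6 rose and 4 fell in DMSO cells. The largest changes among those named were falls of the G2/M kinase that GADD45A is known to inhibit. CDK1 stood at 1.55 ± 0.511 CPM in AG-120 plus Nutlin, against 120 ± 27.9 CPM in AG-120 alone, and at 3.00 ± 0.304 CPM in DMSO plus Nutlin, against 159 ± 8.06 CPM in DMSO alone. CCNB1, its cyclin, stood at 6.96 ± 0.449 CPM in AG-120 plus Nutlin, against 234 ± 15.6 CPM in AG-120 alone, and at 9.92 ± 1.71 CPM in DMSO plus Nutlin, against 268 ± 2.51 CPM in DMSO alone (SD, n = 3 each). Both fell in both comparisons, with edgeR adjusted p of 3.79e-10 or less. MAP2K6, a kinase that activates p38, rose 2.20-fold in AG-120 cells (edgeR adjusted p = 9.21e-07) and 2.32-fold in DMSO cells (edgeR adjusted p = 5.87e-07). The p38 kinase MAPK11 rose 3.04-fold in AG-120 cells (edgeR adjusted p = 3.25e-06) and 4.43-fold in DMSO cells (edgeR adjusted p = 2.57e-07). MAP3K4, which GADD45 proteins bind, fell in AG-120 cells (log2 -0.51, edgeR adjusted p = 0.0101) and in DMSO cells (log2 -0.70, edgeR adjusted p = 0.00134). The p38 kinase MAPK14 and the kinase MAP2K3 were called in neither comparison.

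In the mTORC1, TSC and AMPK list, 7 of 22 genes rose and 5 fell in AG-120 cells, and 10 rose and 4 fell in DMSO cells. The AMPK beta subunit genes led the rise. PRKAB1 rose 5.35-fold in AG-120 cells and 5.55-fold in DMSO cells, and PRKAB2 rose 4.76-fold in AG-120 cells and 4.39-fold in DMSO cells. EIF4EBP1, a translation repressor that mTORC1 phosphorylates, fell by 1.87 on the log2 scale in AG-120 cells and by 1.44 in DMSO cells. These 3 genes had edgeR adjusted p of 3.32e-07 or less in both comparisons. Among the GATOR, KICSTOR and amino acid sensor genes, 3 of 15 rose and 3 fell in each comparison. WDR59, a GATOR2 subunit, rose 1.63-fold in AG-120 cells and 1.77-fold in DMSO cells, while SEH1L, another, fell by 0.99 and by 0.79 on the log2 scale in the same order. MIOS, also of GATOR2, fell by 1.00 in AG-120 cells and by 0.54 in DMSO cells. C7orf60, which encodes the S-adenosylmethionine sensor SAMTOR, rose 1.51-fold in AG-120 cells and 2.00-fold in DMSO cells. The peroxiredoxin and KEAP1 list had 4 of 12 higher and 5 lower in AG-120 cells, and 3 higher and 2 lower in DMSO cells. SQSTM1, the autophagy adaptor that binds KEAP1, rose 2.94-fold in AG-120 cells and 3.21-fold in DMSO cells, and NFE2L2, which encodes NRF2, rose 1.72-fold and 1.55-fold in the same order. KEAP1 rose 1.43-fold in AG-120 cells and 1.28-fold in DMSO cells. TXNRD1, a thioredoxin reductase, fell by 0.33 in AG-120 cells and by 0.44 in DMSO cells on the log2 scale.

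Other pathways known to drive members gave mixed counts. Of 15 ATF4 response genes, 5 rose and 7 fell in AG-120 cells, and 6 rose and 7 fell in DMSO cells. The 5 that rose in AG-120 cells were ATF4, DDIT3, ATF3, SLC3A2 and CEBPB, and all 5 rose in DMSO cells too. ATF4 itself rose 1.49-fold in AG-120 cells and 1.43-fold in DMSO cells. PHGDH, the entry enzyme of serine synthesis, stood at 3.99 ± 0.661 CPM in AG-120 plus Nutlin, against 132 ± 11.4 CPM in AG-120 alone, and at 7.18 ± 0.789 CPM in DMSO plus Nutlin, against 113 ± 1.85 CPM in DMSO alone. SLC7A5, an amino acid transporter, fell by 3.64 in AG-120 cells and by 2.84 in DMSO cells on the log2 scale, and TRIB3, a pseudokinase, by 1.58 and by 1.39 in the same order. In the FOXO list, 5 of 12 rose and 2 fell in AG-120 cells, and 6 rose and 2 fell in DMSO cells. PIK3IP1, a PI3K inhibitor, rose 7.02-fold in AG-120 cells and 8.99-fold in DMSO cells, FOXO1 rose 4.52-fold and 4.20-fold, and CITED2, a CBP and p300 binding protein, fell by 1.79 and by 1.23 on the log2 scale, all in that order of cells.

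The hypoxia and glucocorticoid list covers genes that respond to known inducers of DDIT4. In that list, 6 of 14 rose and 6 fell in AG-120 cells, and 5 rose and 6 fell in DMSO cells. NDRG1, a gene known to follow hypoxia, rose 5.62-fold in AG-120 cells and 3.83-fold in DMSO cells. FKBP5, a glucocorticoid-responsive chaperone, fell by 1.98 and by 1.75 on the log2 scale, and PDK1, a kinase that holds back pyruvate oxidation, by 2.32 and by 1.57, in AG-120 and DMSO cells in that order. The immediate early and NF-kB list includes genes that respond to NF-kB, a known inducer of GADD45B. In that list, 3 of 12 rose and 2 fell in each comparison. NFKBIA, the NF-kB inhibitor, rose 2.31-fold in AG-120 cells and 2.04-fold in DMSO cells, and IER2, an immediate early gene, rose 2.13-fold in AG-120 cells and 1.53-fold in DMSO cells. BIRC3, an NF-kB target, fell by 1.19 in AG-120 cells and by 0.98 in DMSO cells on the log2 scale, and EGR1, a growth factor response gene, by 1.34 in AG-120 cells and by 1.37 in DMSO cells. Of 29 direct p53 targets outside the members, 27 rose and 1 fell in AG-120 cells, and 27 rose and 0 fell in DMSO cells. Their median log2 change was 2.86 in AG-120 cells and 2.82 in DMSO cells, above those of the 9 members. TP53I3, an oxidoreductase gene, rose 118-fold in AG-120 cells and 106-fold in DMSO cells, and CDKN1A, which encodes p21, rose 22.9-fold and 22.2-fold in the same order. TRIM22, of the antiviral TRIM family, rose 14.1-fold in AG-120 cells and 26.2-fold in DMSO cells. Each list gene named here as having risen or fallen had an edgeR adjusted p of at most 0.05 in the comparison given. The lists were not chosen blind to these data and are no independent evidence of a direction.

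In the AG-120 comparisons few list genes were called. With Nutlin, AG-120 cells had lower CCNB1, EIF4EBP1, SLC7A5, PHGDH, KLF6 and PLK2, with log2 differences of -0.48 for KLF6 to -0.86 for PHGDH. For PHGDH this was 3.99 ± 0.661 CPM in AG-120 plus Nutlin and 7.18 ± 0.789 CPM in DMSO plus Nutlin (edgeR adjusted p = 0.00798), and for SLC7A5 15.96 ± 0.840 and 28.4 ± 4.27 CPM in the same order (edgeR adjusted p = 0.00284; SD, n = 3). None of these 6 calls held when only both Nutlin groups were fitted. Without Nutlin, TRIM22 was called higher in AG-120 alone (log2 0.87, edgeR adjusted p = 0.0348). In the interaction PHGDH (log2 -1.08, edgeR adjusted p = 0.0191) and TRIM22 (log2 -0.89, edgeR adjusted p = 0.0446) were called. Each of these 3 calls was lost when a single DMSO alone library was left out.

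Genes whose log2 CPM followed each member most closely were taken from 10422 candidates, by Pearson correlation over the 12 libraries. The libraries split into those with and without Nutlin, so the values mostly reflect that split and carry no p. BTG2 was closest to CLCA2 (r = 0.999) and CDKN1A (r = 0.999), GADD45A to ISCU (r = 0.999) and ITFG1 (r = 0.998), and SESN1 to TP53TG1 (r = 0.999) and FAS (r = 0.998). SESN2 was closest to APLP1 (r = 0.999) and SULF2 (r = 0.999), BTG1 to SH3BGRL (r = 0.997) and HIST1H2BK (r = 0.997), and DDIT4 to PID1 (r = 0.998) and TP53TG1 (r = 0.997). The nearest genes of GADD45G were DDIT3 (r = 0.993) and ZNF706 (r = 0.993), and those of SESN3 were KLHL24 (r = 0.991) and ENC1 (r = 0.991). GADD45B, the member that fell, was closest to WDR5 (r = 0.983) and GGCT (r = 0.982).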

How the data were processed

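Raw read counts per gene symbol in 12 libraries were used as the authors deposited them, with no normalization. Per the submitters' processing notes, Partek, STAR, HTSeq and DESeq2 were used with hg19; versions and roles are not given in the sources used here. Libraries were grouped by their titles. The tests used edgeR 4.0.16 (R 4.3.3, limma 3.58.1): filterByExpr, TMM scaling, 1 quasi-likelihood fit (glmQLFit, glmQLFTest) with a term per group, tested on simulated data first, and Benjamini-Hochberg adjustment over the 15691 genes. The threshold for a call was an adjusted p of 0.05. Standard errors are the log2 change over the root of F, so the 95% intervals are approximate. CPM is TMM-scaled, and log2 CPM used a prior count of 2. The deposited stop lies 1 base past a gene and was reduced by 1. Exon lengths are from GENCODE v29, matched by symbol, and promoters from RefSeq GRCh38.p14.

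The members, lists and tests were chosen with earlier results of these data known. Named were all 9 members, up to 3 called genes of each list per comparison with the smallest adjusted p and at least 1 CPM, the 2 nearest genes of each member with at least 5 CPM, and MDM2 and CDKN1A. The ATF4 response genes that rose in both Nutlin comparisons were named as well, as were MAP3K4, MAP2K3 and MAPK14 of the GADD45 list. Alternatives were DESeq2 1.42.0, its size factors, library totals, no filter, a replicate block, 1 CPM in 3 libraries, only the compared groups, each library left out, and the 3 libraries that stand apart left out. Without molecular identifiers, reads can be PCR copies of 1 molecule.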

Additional observations from a re-analysis of the deposited data

How the results depend on the processing

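The Nutlin calls held in every alternative run: 9 of 9 members in both comparisons, in the same directions, also with each library left out in turn. In the AG-120 comparisons and the interaction 0 members were called under each alternative but 1, in which omitting 3 libraries (DMSO plus Nutlin replicates 2 and 3, AG-120 alone replicate 1) gave 3 calls in AG-120 without Nutlin; the cause was not tested. Directions of small differences were less firm. With library totals the interaction was 0.0039 for BTG2 and 0.034 for SESN2. Without the 3 libraries the difference of AG-120 without Nutlin was 0.22 for GADD45A and 0.15 for GADD45G, that of AG-120 with Nutlin was 0.089 for DDIT4, and the interaction was -0.11 for GADD45A and -0.25 for GADD45B. With single libraries left out, the interaction ran from -0.12 to 0.083 for SESN2, -0.17 to 0.043 for BTG1, -0.16 to 0.023 for BTG2, -0.014 to 0.51 for GADD45A, -0.20 to 0.34 for GADD45B, -0.059 to 0.12 for CDKN1A and -0.11 to 0.24 for MDM2. AG-120 with Nutlin ran from -0.012 to 0.12 for BTG1 and from -0.10 to 0.0175 for DDIT4. AG-120 without Nutlin ran from -0.29 to 0.22 for GADD45A, from -0.78 to 0.16 for GADD45G and from -0.090 to 0.17 for SESN1.

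Counts over all genes moved more. AG-120 without Nutlin called 8 genes, and 110 by DESeq2, 104 with no filter, 13 with 1 CPM in 3 libraries, 29 with only the compared groups and 908 without the 3 libraries. AG-120 with Nutlin called 371 genes, and 877 by DESeq2, 1272 with no filter, 15 with only the compared groups and 1374 without the 3 libraries; the interaction called 57, and 211 by DESeq2, 283 with no filter and 637 without the 3 libraries. With single libraries of the compared groups left out these counts ran from 1 to 9 for AG-120 without Nutlin, from 61 to 1037 for AG-120 with Nutlin and from 23 to 243 for the interaction. With the replicate number as a block, AG-120 without Nutlin called 4 genes, AG-120 with Nutlin 211 and the interaction 32, while the Nutlin responses called 8529 in AG-120 cells and 8211 in DMSO cells, and the member counts were 9, 9, 0, 0 and 0. The deviations of same-numbered libraries correlated at -0.224 to 0.116. A library correlated best with its own number in 5 of 18 cases, each a choice among the 3 libraries of another group. Whether same-numbered libraries share a culture or day was not tested. Depth limits GADD45G most, with 7 counts in its poorest library (AG-120 alone replicate 1).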
